A study of Mus musculus with 13 samples.

Results

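The genes described here encode the proteins of the cytosolic ribosome, in whole back skin of mice sampled every 4 h over 48 h. They were chosen by name, from probes with a single annotated symbol, and the probe of highest mean stood for a gene. The symbol had to be Rpl or Rps with a number, or Rpsa, Rplp0, Rplp1 or Rplp2. After the number, nothing but an optional letter (a, x, y or l) and an optional digit could follow. This gave 61 genes of the 16322 tested, carried by 217 probes, and all 61 passed the filter on dim probes. By role they were 21 small-subunit genes, 30 large-subunit genes, 3 genes of the P stalk and 7 paralogues, relatives of the main genes that share their name with a suffix. A further 17 genes that fit the name rule, Rpl3, Rpl11, Rpl39 and Rps27 among them, were named only on probes with several symbols and were not used. Ribosomal protein genes have many processed copies in the genome, and probes cannot always tell a gene from such a copy, so each value is uncertain in that respect.

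The cytosolic ribosome joins a small subunit, which reads the mRNA, to a large subunit, which forms the peptide bond, and each carries a single copy of most of its proteins. The P stalk of the large subunit, built of Rplp0 and pairs of Rplp1 and Rplp2, recruits the factors that drive elongation. The mRNAs of these proteins belong to the TOP class, which starts with a C followed by a run of pyrimidines and is translated under the control of mTOR, so that much of the control of ribosome supply acts after the mRNA is made. In skin, mutant alleles of Rps19 and Rps20 are known from mice with dark skin, and an allele of Rpl24 from mice with a white belly spot and kinked tail.

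The skin came from male C57Bl6 mice at postnatal day 30, when back hair follicles are in their growth phase (anagen), housed with lights on for 12 h of each day. Equal amounts of RNA from 3 mice were pooled per time point, which gave 13 pools from 39 mice, named by Zeitgeber time (ZT, hours after lights on) from ZT2 to ZT50, each on 1 Affymetrix whole-transcript array. They cover 6 times of day, in 6 dark pools (14, 18 and 22 h) and 7 light pools (2, 6 and 10 h), with 3 pools at 2 h and 2 pools at each other hour. The labels name no engineered allele and no treatment, and the tissue was unsorted, so that fewer cells of a type and less RNA per cell cannot be told apart.

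The median intensity of an array was between 439.98 and 483.2, and pairs of pools correlated between 0.978 and 0.996 over all probes. Markers of epidermis, hair shaft, fibroblasts and fat cells were present in every pool. The summed intensity of 6 skeletal muscle markers ranged from 22866 (ZT2) to 46536 (ZT42), and that of 5 hepatocyte markers from 2564 (ZT42) to 21878 (ZT46). All values below are on the log2(intensity + 16) scale unless given as intensity. They were taken as deposited and, in a second scaling, after each array was centred on the median of all its probes.

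RefSeq's promoter table (GRCm38.p6) held 49 of the 61 genes, with 58 annotated starts. The 30 bases around the start are shown for 5 genes with a TOP run at the annotated start and for 4 genes whose levels the results below turn on. Each line runs 5′ to 3′, with 20 bases before the start and 10 from it on, and capitals mark the run of C and T that opens the annotated transcript.
Rps6, small subunit, chr4:86857358-86857387, minus strand: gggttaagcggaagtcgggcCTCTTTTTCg
Rps18, small subunit, chr17:33955656-33955685, minus strand: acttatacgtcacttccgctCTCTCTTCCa
Rpl38, large subunit, chr11:114668560-114668589, plus strand: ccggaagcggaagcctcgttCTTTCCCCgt
Rpl14, large subunit, chr9:120571497-120571526, plus strand: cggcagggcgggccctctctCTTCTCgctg
Rplp2, stalk, chr7:141447631-141447660, plus strand: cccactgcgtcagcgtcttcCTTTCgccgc
Rps12, small subunit, chr10:23787200-23787229, minus strand: ttaaataccgtcatgcggccaccgccggcc
Rpl13, large subunit, chr8:123102330-123102359, plus strand: gtcacttccctttcgcctgattttgattgg
Rpl37a, large subunit, chr1:72711240-72711269, plus strand: gtcacttccgctcgccggtctaaaaccgcg
Rpl3l, paralogue, chr17:24727806-24727835, plus strand: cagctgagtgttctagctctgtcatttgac

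A TOP run, meaning C followed by at least 4 bases that are C or T at the annotated start itself, was found in 10 of the 49 genes (20.4%), against 3.01% of the 27025 genes of the table. Allowing the run to begin within 5 bases of the start gave 36.7% of these genes, against 21.2% of all. Annotated starts are often a few bases off, and no run at the start says only that those letters do not open the annotated transcript. Within the 300 bases of each promoter, on both strands, the ETS-type word CCGGAAG was in 38.8% of the ribosomal protein genes and 9.93% of all genes. The word AAGATGG, found at YY1 sites, was in 10.2% and 7.28%, the E-box CACGTG, the site of clock factors, in 10.2% and 8.09%, and TATAAA in 12.2% and 15.7%. These words are a description of the letters and were not tested.

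The 61 genes stayed close to their own mean over the 48 h. The median gene had a range of 1.22-fold between its highest and lowest pool, against 1.30-fold for all genes tested. All genes were not matched to the 61 in level, and among the 61 the range was wider where the probe was dimmer. Of the 61, 27 stayed within 1.2-fold, and that share over all genes was not counted. The mean of the 61 genes was lowest at ZT18, in the dark of the first day, at -0.10 log2 relative to its mean over the pools, and highest at ZT50, 2 h into the light of the last day, at 0.08. At ZT18 only 8 of the 61 genes were above their own mean, while 58.6% of all genes tested were, and 29 ribosomal protein genes had their lowest pool there. At ZT50, 56 of the 61 were above their own mean, against 37.8% of all genes tested, and 19 had their highest pool there. The shares of all genes with their lowest pool at ZT18 or their highest at ZT50 were not counted.

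The level at ZT18 was not matched a day later. At ZT42, the same time of day, the mean of the 61 genes was 0.01 as deposited. There 32 genes were above their own mean, against 42.9% of all genes tested. After centring the mean at ZT42 was -0.03, with 17 genes (27.9%) above their own mean, near the 32.6% of all genes tested. That mean was near those at ZT38 (-0.05) and ZT46 (-0.04) in the same night and above that at ZT18. Likewise the 3 pools at 2 h into the light differed among themselves, with means of -0.04 at ZT2, 0.03 at ZT26 and 0.08 at ZT50. Small-subunit genes (-0.11), large-subunit genes (-0.10) and paralogues (-0.13) were low on average at ZT18, and the stalk genes (-0.02) were nearer to their mean. Among the stalk genes Rplp1 had its lowest pool there, while Rplp0 and Rplp2 did not. After centring ZT18 and ZT50 still stood at the ends, with means of -0.11 at ZT18 and 0.10 at ZT50. The muscle markers were also low at ZT18, with a mean of -0.48 log2, second to ZT2 (-0.67) and beside -0.44 at ZT46. With the muscle mean as covariate, the amplitude of the mean profile was 0.0339, against 0.0362 without it. The plot of the mean profile shows both scalings.

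**Figure D1:**
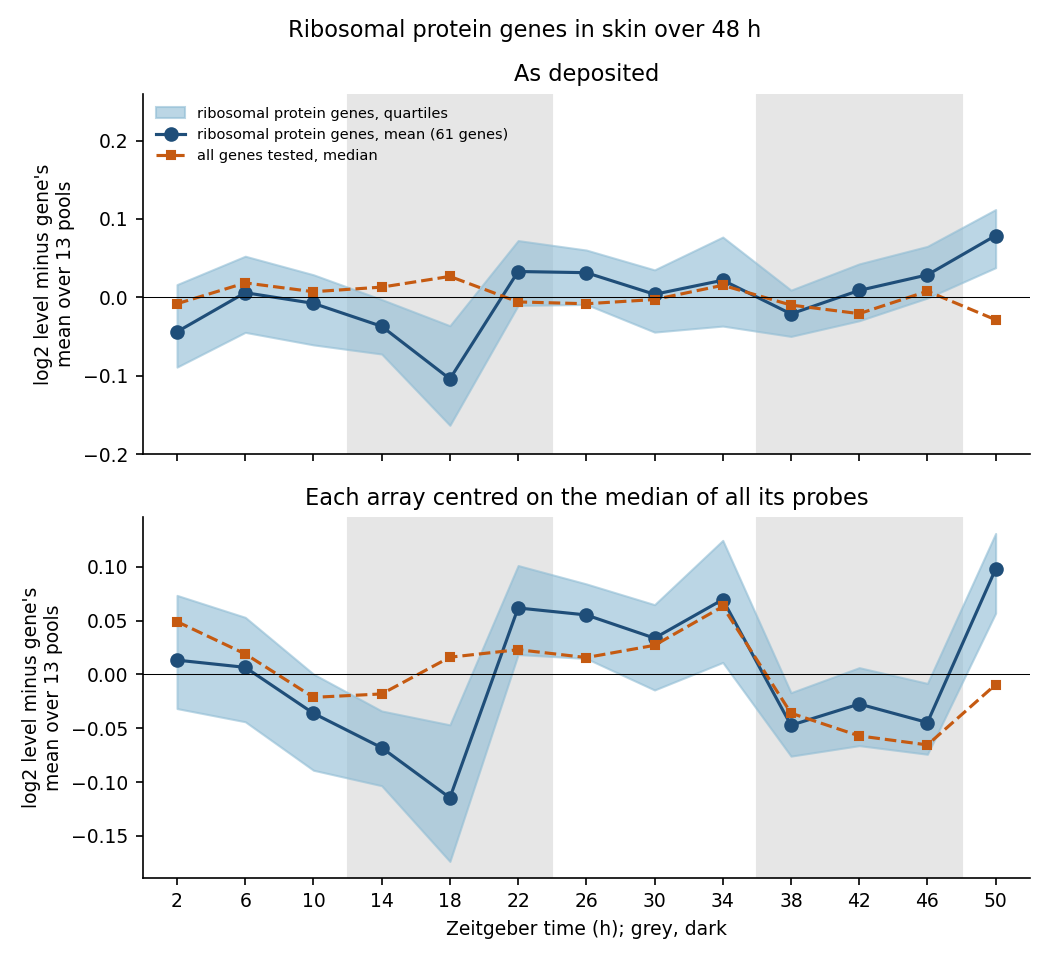
Mean (points) and quartiles (band) of the 61 ribosomal protein genes and median of the 16322 genes tested (dashed) by pool, in log2 relative to each gene's mean over the 13 pools, against Zeitgeber time in hours, as deposited (top) and with each array centred on the median of all its probes (bottom), grey marking the dark. The 61 genes are lowest at ZT18 and highest at ZT50 in both panels, while the median of all genes at ZT18 lies above 0.

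The genes tended to vary together. Over the 13 pools the median correlation between 2 ribosomal protein genes was 0.28 as deposited and 0.46 after median centring, against 0.01 and 0.09 for pairs of all genes tested. Pairs of a small-subunit and a large-subunit gene correlated as strongly (median 0.37 as deposited, 0.54 centred) as pairs within the small subunit (0.40 and 0.53) or within the large (0.32 and 0.52). Pairs of stalk genes (0.08 and 0.13) and pairs of paralogues (-0.03 and 0.03) did so less. These values describe pairs that share the same 13 arrays. The pair correlations rest in part on 1 pool: without ZT18 the median as deposited was 0.19, and without ZT18 and ZT50 it was 0.12. Pairs within some related lists correlated about as strongly over all 13 pools, as deposited and centred. They were at 0.32 and 0.51 for ribosome assembly and nucleolar genes, and 0.25 and 0.47 for mitochondrial ribosomal proteins. RNA polymerase I genes were at 0.24 and 0.45. Ubiquitin fusions and ribosome-bound partners (0.20 and 0.41), initiation factors (0.11 and 0.40), mTOR and TOP genes (0.11 and 0.33) and elongation factors (0.09 and 0.19) were lower.

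**Figure D2:**
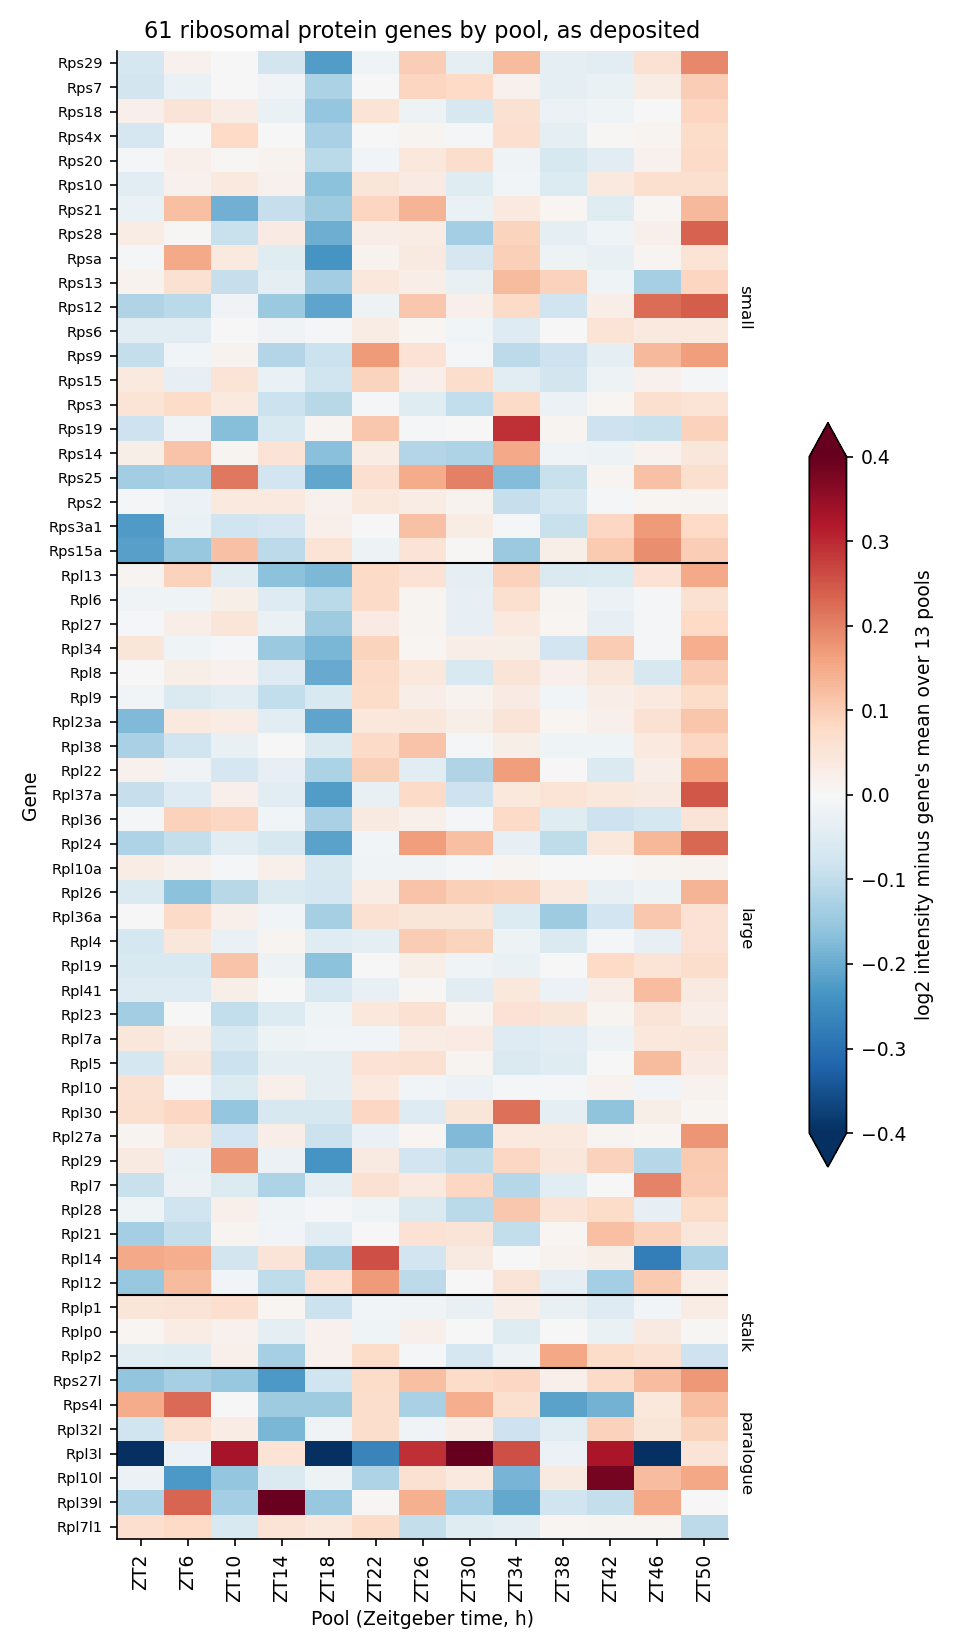
Each row is 1 of the 61 ribosomal protein genes and each column 1 of the 13 pools in order of Zeitgeber time, coloured by log2 intensity minus the gene's mean over the pools, as deposited, with colours ending at 0.4 in either direction. The ZT18 column is blue and the ZT50 column red through most small-subunit and large-subunit rows, and Rpl3l, among the paralogues, runs to both ends of the scale.

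Measured against the mean of the other 60 members, the correlation was above 0.5 for 31 of the 61 genes as deposited and for 48 after centring. It was below 0 for 5 and for 3. These shares over all genes were not counted. The median profile of bright genes that are no members also moved with centring, from -0.30 to 0.56 with the mean of the 61. The closest after centring were Rpl13 (0.92), Rps29 (0.91), Rps7 (0.90), Rpl6 (0.90), Rpl27 (0.89) and Rpl34 (0.89), all structural proteins of their subunits. The farthest were Rpl7l1 (-0.04), Rpl39l (-0.01), Rps15a (-0.01), Rpl10l (0.06), Rplp2 (0.08) and Rpl3l (0.32). Of these 6, 4 are paralogues, 1 is a stalk gene and Rps15a is a small-subunit gene. Genes with a TOP run at the annotated start had a median correlation of 0.65 with the other members and those without 0.70, after centring.

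**Figure D3:**
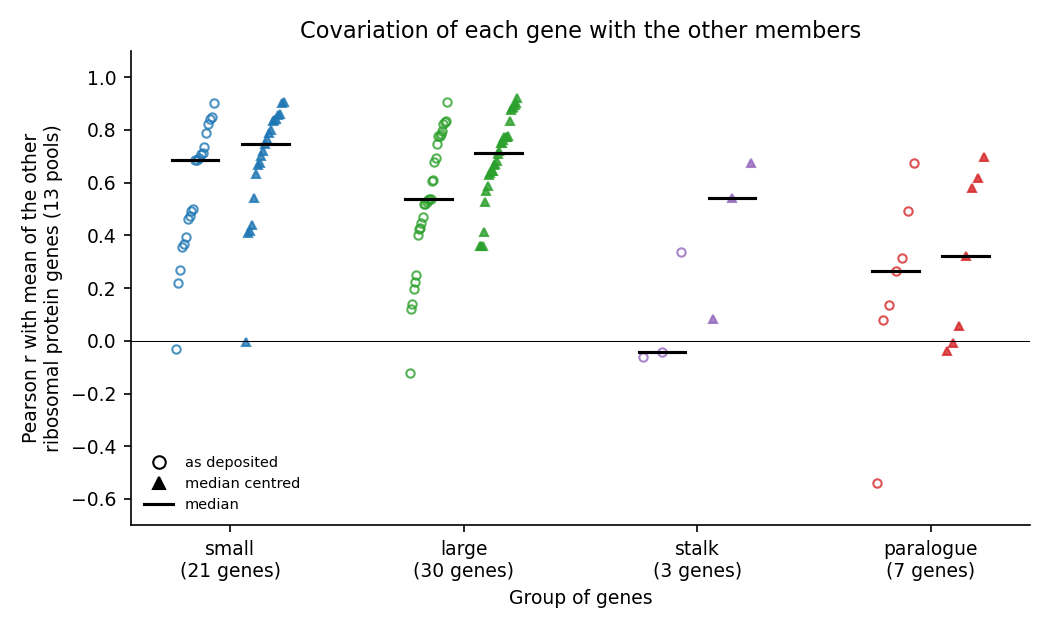
Pearson correlation over the 13 pools of each ribosomal protein gene with the mean of the other members (vertical axis), by group of genes, as deposited (open circles) and median centred (filled triangles), with the median of each group as a bar. Small-subunit and large-subunit genes lie mostly at high correlations after centring and spread widely as deposited, down to -0.12 (Rpl14). Rpl7l1 is the lowest point as deposited, at -0.54.

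No ribosomal protein gene passed the test for a 24 h rhythm, in limma's moderated F over all 16322 genes at an adjusted p under 0.05. In that test 23 genes (0.141%) were called as deposited and 28 (0.172%) after centring, 7 and 8 of them among the 13 measured core clock genes. The smallest adjusted p of a ribosomal protein gene was 0.408 as deposited and 0.289 centred. At an unadjusted p under 0.05, 6 of the 61 passed as deposited, near the 9.54% of all genes. After centring 14 of the 61 (23%) passed, against 10.5% of all genes. The count of 6 depended on single pools: it was 2 without ZT18 or without ZT50, 3 without ZT26 or without ZT38, 10 without ZT30, and 3 with cycle number as a factor in place of linear time.

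The fitted waves were small. The median peak-to-trough fold of the 61 genes was 1.07, against 1.09 over all genes tested, and their mean profile had an amplitude of 0.04 log2 and a fold of 1.05 with its peak 4.46 h after lights on. In 47 of the 61 genes the fitted peak lay in the first 8 h of light, against 33.4% of all genes. After centring the share was 90.2%, and that of all genes 51.6%. Without ZT18 the amplitude of the mean profile was 0.02. For comparison, the clock repressor Nr1d1 had a peak-to-trough fold of 5.66 in the same pools.

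The largest waves belonged to 2 paralogues and 4 subunit genes. Rpl3l, a form of Rpl3 known from skeletal muscle and heart, had an amplitude of 0.38 ± 0.10 (SE, n = 13 pools) and a fold of 1.69 with its peak at 8.8 h (adjusted p = 0.440). Rps4l, which RefSeq annotates as a transcribed pseudogene, had an amplitude of 0.15 ± 0.04 with a peak at 4.37 h (adjusted p = 0.408). Rpl13, Rpl24, Rps29 and Rps12 had amplitudes between 0.09 and 0.10 with peaks from 3.61 to 5.51 h. None differed from a flat line beyond the spread between pools after adjustment. The smallest amplitudes were those of Rpl41 (0.002), Rpl23 (0.006), Rpl14 (0.008) and Rpl10a (0.014).

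Most ribosomal protein genes were slightly lower in dark pools than in light pools, and none passed the test. The mean profile averaged -0.02 ± 0.05 in dark pools and 0.01 ± 0.04 in light pools (SD, n = 6 and 7), a fitted difference of -0.04 log2 with time as covariate. Without ZT18 the fitted difference was -0.03. The difference was negative in 46 of the 61 genes (75.4%), against 44.4% of all genes. After centring it was negative in 57 of the 61 (93.4%), and in 62.6% of all genes. The only gene of the 16322 that passed (0.00613% in either scaling) was no ribosomal protein gene, and the smallest adjusted p among the 61 was 0.357 as deposited and 0.231 centred. At an unadjusted p under 0.05, 6 of the 61 were lower in the dark, against 4.87% of all genes, and after centring 17 of the 61, against 10.9%. Rpl7l1 was the 1 member higher in the dark at that level, as deposited, against 1234 of the 16322 genes. Those 7 ribosomal protein genes in either direction became 2 without ZT18, without ZT38 or without ZT50. They became 4 without ZT6 or without ZT10, and 2 with cycle number as a factor.

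The size of the difference moved with the scaling. The median over the 61 genes was -0.05 as deposited and -0.09 centred, and that over all genes 0.01 and -0.03. The ribosomal protein genes lay 0.06 log2 below the median of all genes (-0.0614). That gap is the same in both scalings by construction, because centring moves the difference of every gene by the same amount. In none of the 61 genes did the dark and light pools separate, and the share over all genes was not counted.

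Rps29, a small zinc-binding protein of the small subunit, had a lowest, median and highest intensity of 3235, 3672 and 3942 in dark pools, against 3604, 3825 and 4314 in light pools, a difference of -0.13 ± 0.05 (SE; adjusted p = 0.357). Rpl13, of the large subunit, had 3087, 3367 and 3688 in dark pools and 3398, 3643 and 3892 in light pools (-0.12 ± 0.05; adjusted p = 0.375). Rps4l had 2321, 2438 and 2827 in dark pools and 2463, 2928 and 3154 in light pools (-0.17 ± 0.07; adjusted p = 0.362). In each of the 3 the dark median lay below the light median and the groups overlapped. In the other direction Rpl7l1 had 5367, 5430 and 5614 in dark pools and 4958, 5154 and 5635 in light pools (0.08 ± 0.04; adjusted p = 0.398). Rpl39l (0.09 ± 0.10), Rplp2 (0.07 ± 0.05) and Rpl10l (0.06 ± 0.07) had the other large positive differences, each within 1.5 standard errors of 0.

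Over the 48 h most of the 61 genes drifted upward, by amounts that did not pass the test. The drift, a straight line in time fitted beside the 24 h wave, had a median of 0.04 log2 per 24 h over the 61 genes and -0.01 over all genes, and it was positive in 51 of the 61 (83.6%), against 43.5% of all genes. After centring it was positive in 47 of the 61, with a median of 0.03, against -0.02 over all genes. It was positive in 19 of 21 small-subunit and 27 of 30 large-subunit genes, and in 1 of 3 stalk genes and 4 of 7 paralogues, as deposited. No gene of the 16322 passed at an adjusted p under 0.05 (0% in either scaling), and the smallest among the 61 was 0.256. At an unadjusted p under 0.05, 10 of the 61 were higher with time, against 3.22% of all genes, and after centring 9, against 2.7%. None of the 61 was lower with time at that level, against 912 of the 16322 genes as deposited and 942 after centring. Without ZT2 the number under that level was 6, and with the muscle mean as covariate 4. The drift of the mean profile, 0.05 per 24 h, was 0.04 without ZT18 and 0.03 without ZT18 and ZT50.

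Rps27l, a relative of Rps27 known as a target of p53, drifted by 0.17 ± 0.03 log2 per 24 h (SE, n = 13; adjusted p = 0.256). Its intensities in time order were 3978, 4047, 3990, 3782, 4200, 4671, 4817, 4670, 4700, 4499, 4681, 4832 and 5008. Every pool from ZT22 on was above each of the 5 pools before it. Rps12, of the small subunit, drifted by 0.17 ± 0.04 (adjusted p = 0.256), with intensities of 4625, 4662, 4974, 4537, 4337, 4958, 5420, 5101, 5304, 4757, 5123, 5870 and 5951. Its last 2 pools were its highest, and ZT38, in the dark of the second day, lay among the early pools.

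Rpl24, of the large subunit, drifted by 0.15 ± 0.04 (adjusted p = 0.326), with its lowest pool at ZT18 (2728) and its highest at ZT50 (3713). Rpl3l had the largest slope and the largest error, 0.24 ± 0.11 (adjusted p = 0.577), and with the mean of skeletal muscle markers as covariate the slope was -0.0202 (adjusted p = 0.995). The 4 largest negative slopes were those of Rpl14 (-0.11 ± 0.06), Rpl7l1 (-0.07 ± 0.03), Rpl39l (-0.05 ± 0.08) and Rps2 (-0.03 ± 0.03), with adjusted p between 0.592 and 0.889. Rpl14 and Rpl7l1 were thus at the opposite end from most large-subunit genes, within 2 standard errors of 0.

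**Figure D4:**
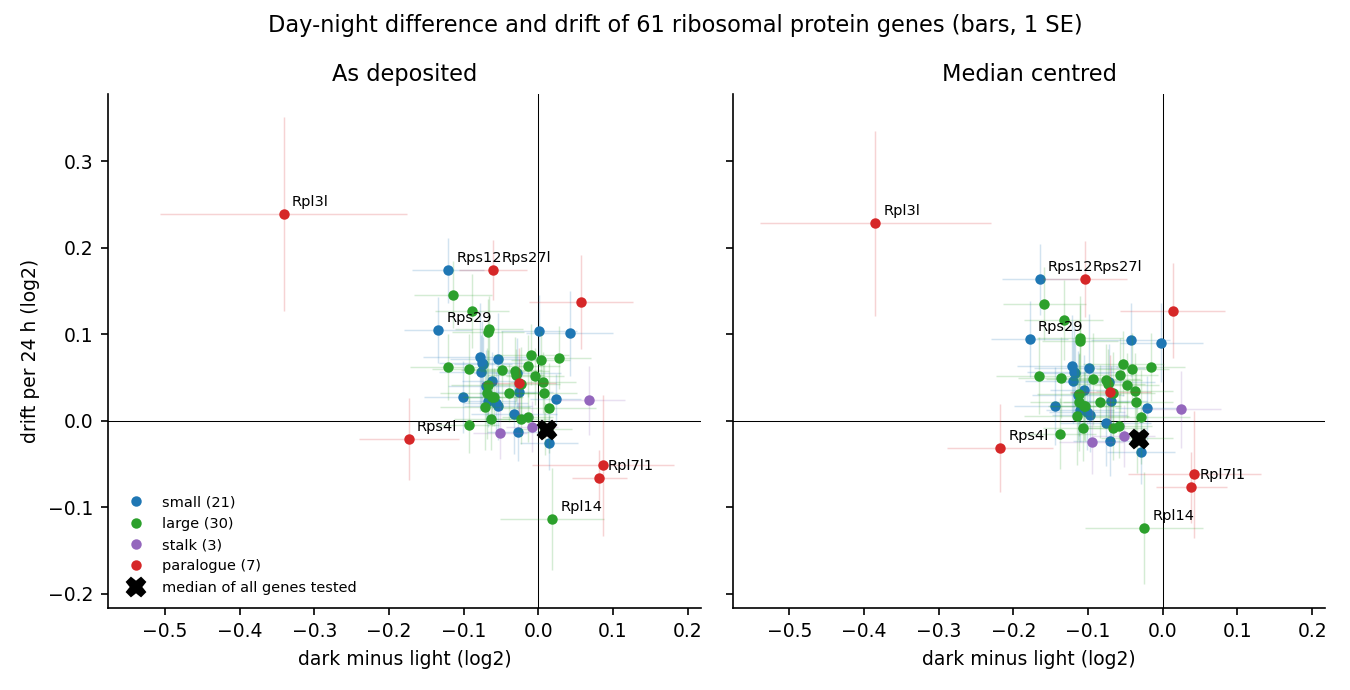
Each point is 1 of the 61 ribosomal protein genes, coloured by group, at its dark minus light difference (horizontal, log2) and its drift per 24 h (vertical, log2), with bars of 1 SE, as deposited (left) and median centred (right), and a cross marks the median of the 16322 genes tested. Most points lie left of and above the cross, and centring moves the points and the cross left together.

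The waves of the second day and the first were compared over 6 pools each, leaving out ZT50. No ribosomal protein gene passed, with a smallest adjusted p of 0.136 as deposited and 0.0779 centred. Of all genes 478 (2.93%) passed as deposited and 0 (0%) after centring. At an unadjusted p under 0.05, 1 of the 61, Rps19, passed as deposited, against 26.6% of all genes, and 5 passed after centring, against 34.7%. Rps19 had an amplitude of 0.15 with its peak at 9.51 h on the second day and of 0.09 with its peak at 21.5 h on the first. Its highest pool, ZT34, stood at 2718 intensity units, and its other 12 pools lay between 1964 and 2385.

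Of the small-subunit genes with a known tie to signalling or skin, none passed a test. Rps6, the target of S6 kinase below mTOR, had a lowest, median and highest intensity of 16116, 16434 and 16872 in dark pools and 15678, 16146 and 16691 in light pools, a range of 1.08-fold over the 13 pools. Rps20 had 9051, 9559 and 9853 in dark pools and 9648, 9884 and 10284 in light pools (-0.07 ± 0.04; adjusted p = 0.450). Rps3, at the mRNA entry of the small subunit, had 5284, 5651 and 5963 in dark pools and 5326, 5932 and 6015 in light pools (-0.05 ± 0.05; adjusted p = 0.603). Dark and light overlapped in all 3. Rpsa, known also as the laminin receptor, had 5036, 5835 and 5995 in dark pools and 5660, 6100 and 6589 in light pools (-0.10 ± 0.05; adjusted p = 0.426), with ZT18 its lowest pool and a range of 1.31-fold. Rps19, described above, had a range of 1.38-fold, wider than the median of the 61 genes.

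In the large subunit, Rpl5, which binds 5S rRNA and restrains Mdm2, had 6846, 7001 and 7739 in dark pools and 6673, 7146 and 7388 in light pools, with no difference beyond its error (0.01 ± 0.04; adjusted p = 0.954). Rpl37a had a range of 1.39-fold, with its lowest pool at ZT18 (5942) and its highest at ZT50 (8240). Rpl14 had a wide range of 1.45-fold that followed neither the time of day nor the other members, with its highest pool at ZT22 (1976) and its lowest at ZT46 (1361). Across the 61 genes the range was wider where the probe was dimmer (Spearman correlation of range with mean level -0.78), as a description across genes, which are not independent replicates.

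The stalk genes Rplp0 and Rplp1 had narrow ranges. Rplp0, often used as a reference gene, had the narrowest range of the 61, 1.06-fold, with 13519, 13775 and 14209 in dark pools and 13426, 13941 and 14170 in light pools (-0.01 ± 0.03; adjusted p = 0.929). Rplp1 had 14292, 14969 and 15261 in dark pools and 14883, 15508 and 15901 in light pools (-0.05 ± 0.04; adjusted p = 0.536). Rplp2 had 2235, 2571 and 2734 in dark pools and 2314, 2380 and 2491 in light pools. Its dark median was above its light median, which sets it with 3 paralogues as the only members of positive difference in both scalings. Next to Rplp0 the narrowest ranges were those of Rpl10a (1.07-fold), Rps6 (1.08-fold) and Rpl7a (1.08-fold).

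The 7 paralogues differed in how far they followed the other members. Their correlation with the mean of the others, as deposited, ran from -0.54 (Rpl7l1) to 0.67 (Rps27l). Rpl3l had the widest range of the 61 genes, 2.17-fold, with intensities in time order of 222.5, 327.7, 423.7, 346.8, 227.3, 275, 412.2, 501.2, 401.8, 327.6, 422, 232.8 and 345.9. The 2 pools at 18 h, 227.3 and 422, lay near opposite ends of that range. Its profile followed that of the 6 skeletal muscle markers, Acta1, Ckm, Myh4, Tnnt3, Mylpf and Actn3, over the 13 pools (r = 0.97, rho = 0.97, each with a permutation p of 1e-05, the smallest that 100000 permutations can give, and 6.1e-04 adjusted over the 61 members; r = 0.96 without the 2 pools farthest from the median of the markers, ZT2 and ZT18). It was the only 1 of the 61 past an adjusted p of 0.05 in that comparison. The mean of the 61 genes correlated with the markers at 0.45 as deposited, and at -0.07 without those 2 pools. After centring it correlated at 0.40 with all pools and at 0.47 without the 2 farthest in that scaling, ZT2 and ZT46. That value keeps ZT18, so -0.07 and 0.47 rest on different pools. The mean of the hepatocyte markers correlated with that of the 61 genes at -0.16 as deposited and -0.44 centred. Without the 2 pools farthest from their own median it did so at -0.61 and -0.64. With the mean of the muscle markers as covariate, the amplitude of Rpl3l was 0.107, its dark minus light difference -0.0821 and its drift -0.0202. Without that covariate they were 0.378, -0.341 and 0.239.

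**Figure D5:**
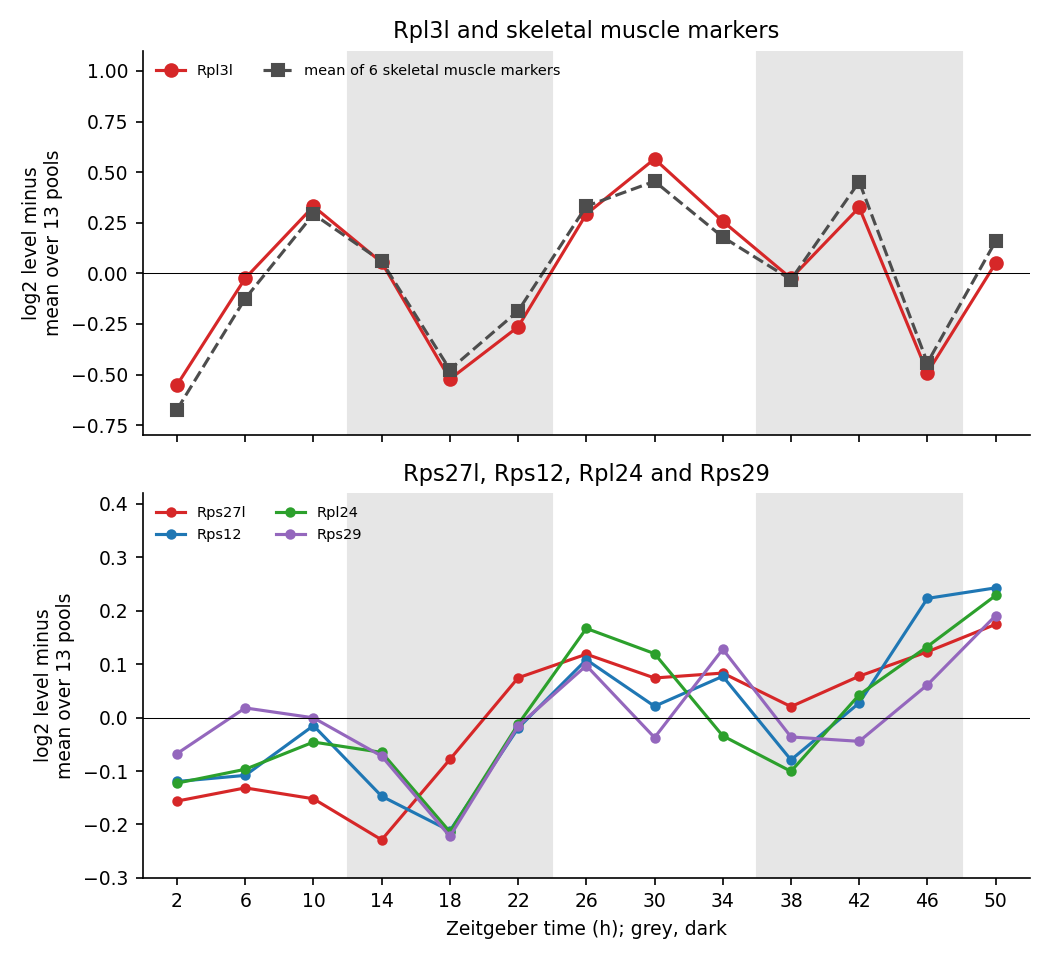
Log2 level relative to the mean over the 13 pools against Zeitgeber time in hours, as deposited, grey marking the dark. Rpl3l (top) and the mean of the 6 skeletal muscle markers run together, low at ZT2, ZT18 and ZT46 and high at ZT10, ZT30 and ZT42, and Rps27l, Rps12, Rpl24 and Rps29 (bottom) have their highest pool at ZT50.

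Rpl10l, a copy of Rpl10 known from testis, had a range of 1.53-fold, with 2177, 2388 and 3099 in dark pools and 2022, 2333 and 2642 in light pools, and its highest pool at ZT42. It correlated with Rpl10 at 0.15 as deposited. Rpl39l, a copy of Rpl39 also known from testis, had 269.8, 293.6 and 401.4 in dark pools and 259.7, 275.8 and 357.6 in light pools, with its highest pool at ZT14. Rpl7l1 ran against the other members as deposited, with a correlation of -0.54 with their mean, and -0.29 with Rpl7. After centring the first of these was -0.04. Rps4l correlated with Rps4x at 0.27 as deposited and 0.55 centred, and Rpl32l with the mean of the other members at 0.49 and 0.58.

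Genes of the wider ribosome pathway were measured in the same pools. The 75 mitochondrial ribosomal protein genes followed the cytosolic ones most closely among the lists that hold over 10 genes, with a correlation of their mean profiles of 0.75 as deposited and 0.91 centred, and 63 of the 75 were lower in the dark. None passed a test, and their largest wave was that of Mrpl54 (fold 1.41, adjusted p = 0.297). The 6 measured ubiquitin fusions and ribosome-bound partners, such as Fau and Serbp1, correlated at 0.78 and 0.88, and at 0.38 and 0.76 without the 2 pools farthest from the median of their own profile. For factors that act on ribosomes the correlation as deposited was near 0 or below it. There 24 initiation factors correlated at 0.10, 7 elongation factors at 0.08, 26 assembly and nucleolar genes at -0.05, 10 RNA polymerase I genes at -0.19 and 15 genes of mTOR signalling and TOP control at -0.14. Without the 2 farthest pools the assembly list was at 0.36 and the RNA polymerase I list at 0.24, so the sign of both turned. The mitochondrial list was then at 0.65. After centring these 5 lists lay between 0.47 and 0.62. Bright genes that are no members (mean level past the 90th percentile) were at 0.56 centred and -0.30 as deposited, so the value of bright genes at large also moved with centring. In all 5 lists no gene passed the test for rhythm. As deposited the assembly and RNA polymerase I lists had their highest pool at ZT18, where the ribosomal protein genes had their lowest.

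Several probes named the same gene for 39 of the 61, at most 14 for Rps12. In the 38 genes with a different second probe, 153 other probes were set against the chosen one over the 13 pools, and the median gene had a correlation of 0.92 between them. The correlation was above 0.5 in 36 of the 38, and lower in Rps2 (0.40) and Rplp0 (0.44). For Rps12 it lay between 0.90 and 0.99, for Rps29 between 0.97 and 0.99 and for Rpl24 between 0.96 and 0.97. These probes share the arrays and may share target sequence. Their likeness says that probes naming the same gene gave like patterns. Where probes read the same sequence it cannot tell a gene from its copies, and it is no replicate of the pools. The 22 genes with 1 probe, Rpl3l, Rps27l, Rpl7l1 and Rpl14 among them, could not be compared in this way.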

How the data were processed

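Values were used as deposited, as linear intensity per probe (from their range), for 13 arrays of 1 pool each. Per the submitters' processing notes, the authors used Affymetrix Expression Console 1.1.1 and PLIER 2.0, with no role given for either. How arrays were scaled, and a genome build, are not given in the sources used here. Precision is limited by having 13 arrays. Of 35557 probes in the table, the platform annotation gives 21789 one symbol, 1621 several and 12147 none; RefSeq's gene table updated 0.

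Deposited intensities were converted to log2(value + 16), so folds understate changes of dim genes. Single-symbol probes were kept where their mean reached the 25th percentile of all probes (7.61 log2), and the brightest probe stood for a gene. Tests ran in limma 3.58.1 (R 4.3.3), with Benjamini-Hochberg adjustment over 16322 genes and calls at an adjusted p under 0.05. The rhythm was a moderated F of cosine and sine terms of 24 h period with linear time, the drift the time term of that fit. Dark was compared with light with linear time as covariate. The second day was compared with the first by the interaction of cycle and wave without ZT50. Amplitude is the height of the wave above its mean, and the fold runs from trough to peak. Mean profiles and correlations are descriptions without a test, except the permutation test against muscle markers (Python 3.11.15, scipy 1.17.1), two-sided. P-values measure the spread between pools of separate mice. The fits were tested on simulated data.

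The members, gene lists, tests and the rule for named genes were chosen with earlier results of these data known. Named genes are the extremes of amplitude, difference, drift, correlation and range, all paralogues and stalk genes, and genes with a known role. The remark on the order of the Rps27l pools was made after its values were seen. Alternatives were median centring, quantile normalization, pseudocounts of 1 and 64, 2 other filters, the mean of a gene's probes, other time terms, a muscle covariate, a robust prior and leaving out each pool.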

Additional observations from a re-analysis of the deposited data

Results flagged for a closer look

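Of 124 sets of values (61 genes and the mean profile in dark and in light pools), 8 held 1 pool set apart from the rest by its gap to the nearest pool as a share of the whole range. Chance sets apart about 1 in 20 such groups, and the genes share their pools. In the dark pools ZT18 was the lowest and stood apart for 5 genes, Rpsa (0.753), Rps28 (0.682), Rpl37a (0.658), Rps14 (0.657) and Rps4x (0.656). In the light pools, ZT2 was the lowest for Rpl23a (0.691), ZT34 the lowest for Rplp0 (0.577) and ZT50 the highest for Rpl34 (0.587).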

How the results depend on the processing

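No ribosomal protein gene was called (0) in limma in any of the 28 alternatives for the rhythm, 26 for dark minus light, 24 for the drift and 22 for the days, and the smallest adjusted p over them was 0.095, 0.127, 0.111 and 0.0594. The dark minus light difference of the mean profile was -0.0868 with each array centred on all probes, against -0.0429 as deposited; centred on the genes tested, an alternative chosen after seeing the data, it was -0.0398. The direction of the mean profile's difference and drift was the same in every alternative. Leaving out 1 pool gave amplitudes from 0.0237 (without ZT18) to 0.0437, differences from -0.0578 to -0.0263 (without ZT18), drifts from 0.0365 to 0.0525 and median pair correlations from 0.188 (without ZT18) to 0.298. Without ZT18 and ZT50, also chosen after seeing the data, the amplitude was 0.0189, the difference -0.0168 and the correlation 0.125. With cycle number as a factor in place of linear time, they were 0.0219 and -0.0172 for amplitude and difference. No paired analysis was possible because no number in the labels ties a pool of one time of day to a pool of another. With RNA of 3 mice pooled per time point, variation between mice within a pool cannot be measured.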

Other observations

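Among genes that are no members, those whose profile after centring was most like the mean of the 61 genes over the 13 pools were Srp14 (r = 0.97), which encodes a protein of the signal recognition particle, Prdx3 (0.95), a mitochondrial peroxidase, Uqcrq (0.95), of respiratory complex III, 6430571L13Rik (0.95), Sem1 (0.95), of the proteasome lid, Atox1 (0.95), a copper chaperone, Ndufb7 (0.94), of complex I, and Atp5h (0.94), of the ATP synthase. As deposited their correlations lay between 0.77 and 0.92. They were picked for this likeness out of all genes tested, so the values are a description.

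In the lists of factors that act on the ribosome, the smallest p for a rhythm was that of Eif3i, a subunit of initiation factor eIF3 (amplitude 0.13 log2, adjusted p = 0.277). Nhp2, of the snoRNPs that modify rRNA, had a fold of 1.19 (adjusted p = 0.432), and Polr1d, shared by RNA polymerases I and III, 1.16 (adjusted p = 0.540). Eif5a had a fold of 1.15 with its peak in the dark, at 16.8 h (adjusted p = 0.559). Mycn, a transcription factor of the mTOR and TOP list, had its peak at 21.7 h (fold 1.13, adjusted p = 0.515).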
